A study of Solanum lycopersicum with 6 samples.

Results

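Small heat shock proteins were followed at 10 tomato loci across the 6 libraries of the series, out of 35768 gene models in the deposited table. The loci were taken from a fixed list of cytosolic, plastid, mitochondrial and endoplasmic reticulum forms, and they were selected on gene family with the FPKM differences between slgols2 and WT in these same libraries known. A row was found for 9 of the 10 loci. Solyc08g078700 had no row and is not analysed here, and Solyc06g076520.1 was listed at 0 in every library, a count that allows up to 3 reads per library. The other 8 passed the filter used for the test over all genes, a mean of at least 1 FPKM (fragments per unit of gene length and of sequencing depth) over the 6 libraries. The sources used here do not pair these identifiers with names, so which locus codes for which form is not stated.

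Small heat shock proteins are short chaperones built around an alpha-crystallin domain. They form large assemblies that hold unfolding proteins in a soluble state until larger chaperones, which use ATP, refold them. Plants have many of them, with separate classes for the cytosol, plastids, mitochondria and the endoplasmic reticulum. Their genes are usually almost silent in unstressed vegetative tissue and are switched on by heat shock factors under heat and other stresses. Some are also made during seed and fruit development.

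The libraries came from the pericarp, the wall of the fruit, taken from the shoulder at 30 DPA in the tomato cultivar Ailsa Craig. There were 3 libraries of wild type (WT) fruit and 3 of slgols2 knock-out fruit, which carried a CRISPR-Cas9 mutation. GolS commonly stands for galactinol synthase, an enzyme of raffinose synthesis. All plants grew in a greenhouse at 25 °C for 16 h of light and 18 °C for 8 h of dark. The labels give no heat treatment, no hour of harvest, no allele or number of edited lines, and do not say whether replicates were separate plants, so the spread between replicates may be technical.

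Depths recovered from the FPKM steps lay between 15590000 and 17940000 fragments. Replicate 3 of slgols2 stood apart from replicates 1 and 2, with correlations of log2(FPKM + 1) over tested genes of 0.849 and 0.869, against 0.957 between replicates 1 and 2. Its correlations with WT were 0.878 to 0.903. Those of replicates 1 and 2 with WT were 0.858 to 0.888 and 0.883 to 0.914, so the ranges overlapped. In whole tissue, more cells of a type and more RNA per cell cannot be told apart. Of the 7 loci on a list of fruit regulators, recalled from the literature to check the labelled tissue, none was at 0 in every library and 5 passed the filter.

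In slgols2 replicates 1 and 2, 7 of the 9 small heat shock protein loci with a row were among the 100 genes with the highest FPKM, against 0 in slgols2 replicate 3 and 0 or 1 in the WT libraries. The exceptions were Solyc06g076520.1, listed at 0, and Solyc06g076540.1, at 8.29 and 6.98 FPKM. Together the loci took 0.0583%, 0.0298% and 0.0350% of all fragments in WT replicates 1, 2 and 3. The shares were 1.51% and 0.934% in slgols2 replicates 1 and 2, and 0.0272% in replicate 3, the lowest of the 6. Counted in the 20 genes with the highest FPKM of a library, there were 6 of these loci in slgols2 replicate 1 and 4 in replicate 2, and 0 in each of the other 4 libraries. The highest of them was at rank 2 by FPKM in slgols2 replicate 1 and at rank 4 in replicate 2, against ranks 86 to 153 in WT and 202 in slgols2 replicate 3.

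**Figure D1:**
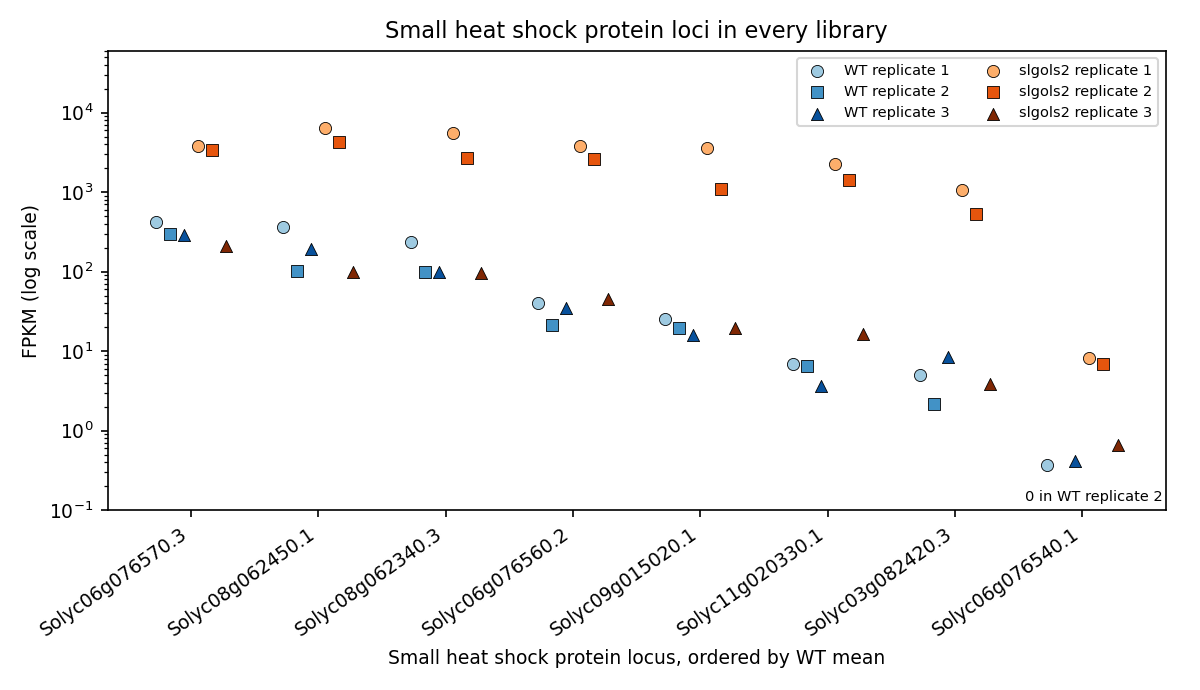
FPKM on a log scale of the 8 small heat shock protein loci that passed the filter, with 1 point per library, ordered by WT mean. At every locus slgols2 replicates 1 and 2 lie above all WT libraries, and slgols2 replicate 3 lies within the WT range at 2, below it at 3 and above it at 3.

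The 3 loci with the highest WT levels were Solyc06g076570.3, Solyc08g062450.1 and Solyc08g062340.3, in that order in every WT library. Solyc06g076570.3 stood at 425, 299 and 287 FPKM in WT replicates 1, 2 and 3, and at 3823, 3422 and 209 FPKM in slgols2 replicates 1, 2 and 3. Thus slgols2 replicates 1 and 2 were far above WT and replicate 3 was below the lowest WT value. This locus had the smallest ratio to WT of the 7 loci that reached 1 FPKM in every WT library: replicates 1 and 2 were 11.3 and 10.2 times the WT mean. Its difference of means was 2.07 on the log2(FPKM + 1) scale, with a standard error of 1.11 (limma, n = 3 per group).

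Solyc08g062450.1 stood at 369, 102 and 194 FPKM in WT and at 6496, 4267 and 99.2 FPKM in slgols2. The highest level reached by any of these loci in any library was its value in slgols2 replicate 1, while replicate 3 lay just under the lowest WT value. Solyc08g062340.3, also on chromosome 8 by its identifier, stood at 236, 98.6 and 99.3 FPKM in WT and at 5484, 2721 and 95.3 FPKM in slgols2. It shared the pattern of the other chromosome 8 locus and of Solyc06g076570.3, with WT replicate 1 highest among WT and slgols2 replicate 3 below the WT range. The WT means of the chromosome 8 loci were 222 ± 136 and 145 ± 78.9 FPKM (SD, n = 3), beside 337 ± 76.8 FPKM at Solyc06g076570.3. These SDs overlap, but they hold differences between libraries that the loci share, and the order was the same in every WT library. The log2 differences of Solyc08g062450.1 and Solyc08g062340.3 were 2.85 (standard error 1.59) and 3.08 (standard error 1.48).

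Solyc06g076560.2 and Solyc09g015020.1 had middling levels in WT. Solyc06g076560.2 stood at 40.4, 21.3 and 34.5 FPKM in WT and at 3836, 2644 and 45.9 FPKM in slgols2, so that in replicate 1 it reached the level of Solyc06g076570.3, a locus whose WT mean was 337 FPKM against 32.1 FPKM. All 3 slgols2 values lay above WT, replicate 3 by little, at 1.14 times the highest WT value. Solyc09g015020.1 stood at 25.4, 19.8 and 15.8 FPKM in WT and at 3574, 1098 and 19.8 FPKM in slgols2. It differed most between slgols2 replicates 1 and 2, by 3.25 times, and replicate 3 lay within the WT range. The log2 differences were 4.61 (standard error 1.64) for Solyc06g076560.2 and 4.37 (standard error 1.80) for Solyc09g015020.1.

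The largest ratios belonged to the lowest of these 7 loci in WT. Solyc11g020330.1 stood at 6.91, 6.59 and 3.70 FPKM in WT, from 69, 65 and 33 reads, and at 2237, 1423 and 16.7 FPKM in slgols2, from 22959, 13067 and 156 reads. Replicates 1 and 2 were 390 and 248 times the WT mean, and replicate 3, at 2.91 times, was also above every WT library. Its log2 difference of 5.87 (standard error 1.79) was at rank 2 of the 15695 tested genes. Solyc03g082420.3 stood at 4.99, 2.18 and 8.50 FPKM in WT and at 1054, 525 and 3.82 FPKM in slgols2. Replicates 1 and 2 of slgols2 were 202 and 101 times the WT mean and replicate 3 was within the WT range, with a log2 difference of 4.62 (standard error 1.98). The WT means of this pair, 5.74 ± 1.77 and 5.22 ± 3.17 FPKM (SD, n = 3), did not differ beyond their spread.

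Solyc06g076540.1 was near the detection limit in most libraries. It had 3, 0 and 3 reads in WT and 69, 52 and 5 reads in slgols2, which corresponded to 0.371, 0 and 0.415 FPKM and to 8.29, 6.98 and 0.660 FPKM. It passed the filter only through its slgols2 values, and so had to differ. Its log2 difference was 2.00 (standard error 0.66) and moved to 3.62 with a pseudocount of 0.1. By identifier it belongs with Solyc06g076520, Solyc06g076560 and Solyc06g076570 to a run of 4 listed loci on chromosome 6, whose levels in slgols2 replicate 1 ran from 0 to 3836 FPKM. Near-identical copies can share reads, so single levels within this run are uncertain.

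**Figure D2:**
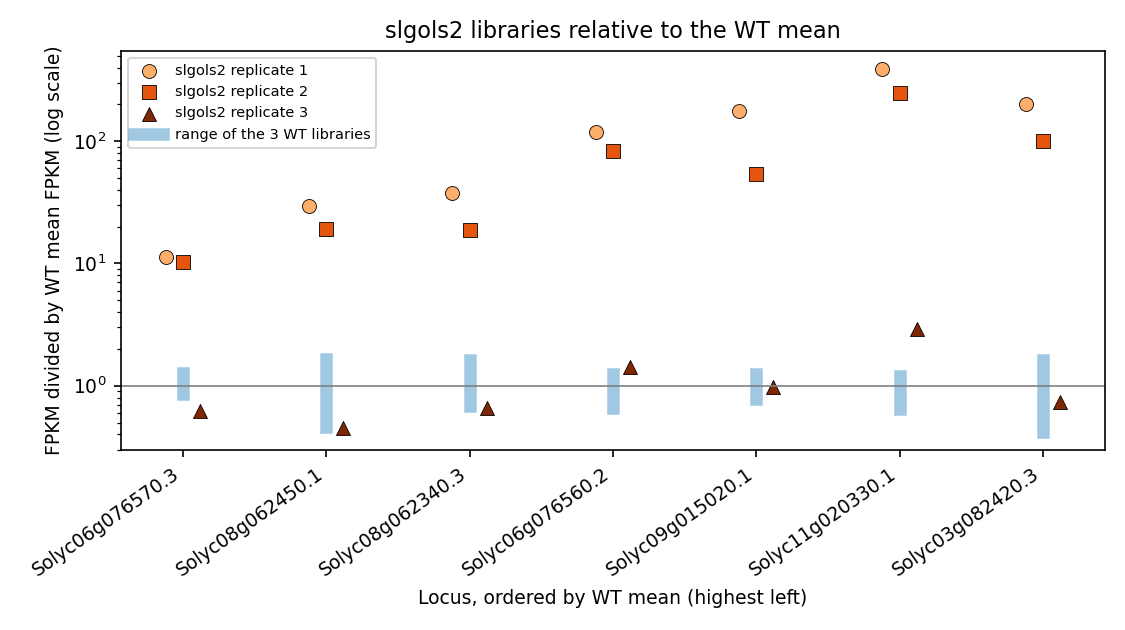
FPKM in each slgols2 library divided by the WT mean (log scale) for the 7 loci that reached 1 FPKM in every WT library, with bars for the range of the WT libraries. Ratios of slgols2 replicates 1 and 2 run from 10.2 to 390, and those of replicate 3 from 0.447 to 2.91.

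Over these 7 loci the median ratio to the WT mean was 120 in slgols2 replicate 1, 54.0 in replicate 2 and 0.730 in replicate 3. Replicate 1 was above replicate 2 at all 8 loci that passed the filter, by 1.12 to 3.25 times at the 7. WT fruit varied less: the highest WT value was 1.48 to 3.90 times the lowest, WT replicate 1 was highest at 6 of the 7 loci and replicate 3 at 1. The median SD of log2(FPKM + 1) over the 8 loci was 0.44 in WT and 3.42 in slgols2, against 0.19 and 0.30 over all tested genes.

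The make-up of the small heat shock protein pool differed along with its size. In WT, Solyc06g076570.3 made up 38.4%, 54.4% and 44.6% of the FPKM sum of these loci, and in slgols2 replicate 3 it made up 42.6%. In slgols2 replicates 1 and 2 its share was 14.4% and 21.2%, and Solyc08g062450.1 led with 24.5% and 26.5%. Solyc11g020330.1 held between 0.575% and 1.20% of the sum in WT, but 8.44% and 8.83% in slgols2 replicates 1 and 2 and 3.41% in replicate 3. The 3 lowest loci in WT with a level above 1 FPKM, Solyc09g015020.1, Solyc11g020330.1 and Solyc03g082420.3, were also below the 4 others in slgols2 replicates 1 and 2. In slgols2 replicate 1 the lower 3 thus had larger ratios to WT than the upper 4 without overtaking them. Order changed only within the upper 4 and within the lower 3. Since each ratio has the WT level as its denominator, this relation is a description of levels and not an independent measure.

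**Figure D3:**
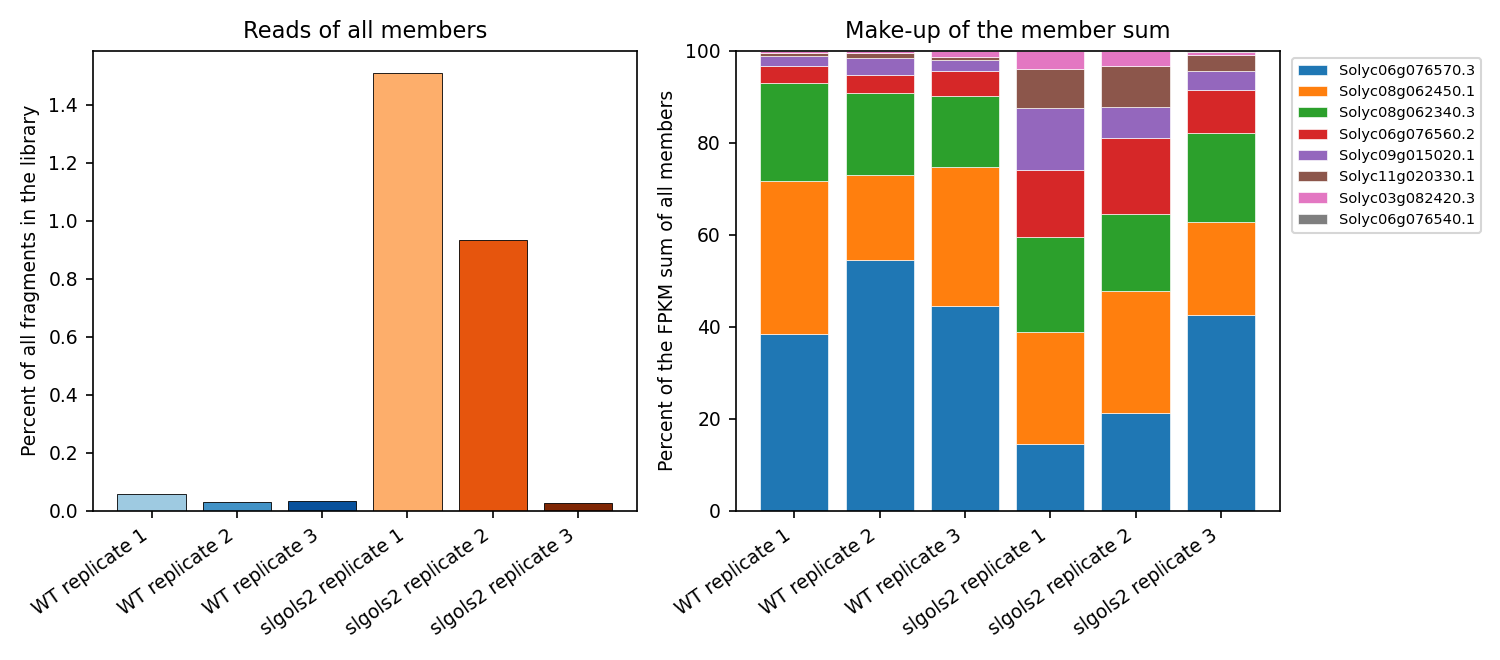
Left, reads of all small heat shock protein loci as a percent of the fragments of each library; right, the percent of their FPKM sum contributed by each locus. The bars for slgols2 replicates 1 and 2 reach 1.51% and 0.934%, against 0.0272% to 0.0583% in the other 4 libraries, and Solyc06g076570.3 leads in those 4.

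As the loci were chosen with results of this contrast in view, the comparison of slgols2 with WT is a description and no test is drawn from it. None of the 8 passed an adjusted p of 0.05 in the fit over all genes (limma, Benjamini-Hochberg), where 0.229% of the 15695 tested genes passed, 0.0701% as higher in slgols2. One of the 8, Solyc06g076540.1, passed the filter only through slgols2, so counts are also given for the other 7. At an unadjusted p under 0.05 there were 4 of the 8 (3 of the 7), beside 12.0% of all tested genes. The lowest adjusted p of a locus was 0.299. By limma-voom on recovered reads 0 were called, beside 1 gene over all genes, so that count says little about these loci. The median log2 difference was 3.73 over the 8 loci, 4.37 over the 7 and 0.001 over all tested genes. Without slgols2 replicate 3, 8 of 8 (7 of the 7) were called higher, beside 0.777% of tested genes called higher and 1.78% called in either direction, and the median log2 difference was 5.71. That library was the slgols2 one in which these loci were near WT, so leaving it out favoured such calls. As the loci were chosen with this contrast known, no support is drawn from the calls. Sample quality weights from limma were 0.81, 4.83 and 0.17 for slgols2 replicates 1, 2 and 3, so the slgols2 side rested mostly on replicate 2. With these weights 8 of 8 (7 of the 7) were called higher beside 6.07% of tested genes called higher and 12.9% in either direction. No support is drawn from these calls either. No locus was called with any other single library left out, and without slgols2 replicate 1 the median log2 difference over the 8 was 2.40.

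Of the 7 loci that reached 1 FPKM in every WT library, all 3 slgols2 libraries lay above all WT libraries at 2, Solyc11g020330.1 and Solyc06g076560.2, beside 9.60% of tested genes. Replicates 1 and 2 both lay above the highest WT value at 7 of the 7, beside 21.1% of tested genes. Replicate 3 did so at 2 of the 7, beside 38.1%, and it was within the WT range at 2 and below it at 3. In 78 of the 15695 tested genes (0.497%), slgols2 replicates 1 and 2 both reached at least 4 times the highest WT value, and all 7 loci were among them. At 10 times there were 39 genes (0.248%), 6 of the 7 loci among them. The pattern was not particular to these loci. On the lists described below, 7 of 10 other small heat shock loci, 5 of 18 large chaperones and 0 of 16 heat shock factors were among the 78 genes. Among the 39 were 6 of the 10 and 0 of the 18. Of the 78, 52 stood in slgols2 replicate 3 at no more than 2 times the highest WT value, 6 of the 7 loci included. With no limit on replicates 1 and 2, slgols2 replicate 3 reached 4 times the highest WT value in 107 of 15695 tested genes. Among these were 0 of the 8 loci, which at so small a share says little about them.

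**Figure D4:**
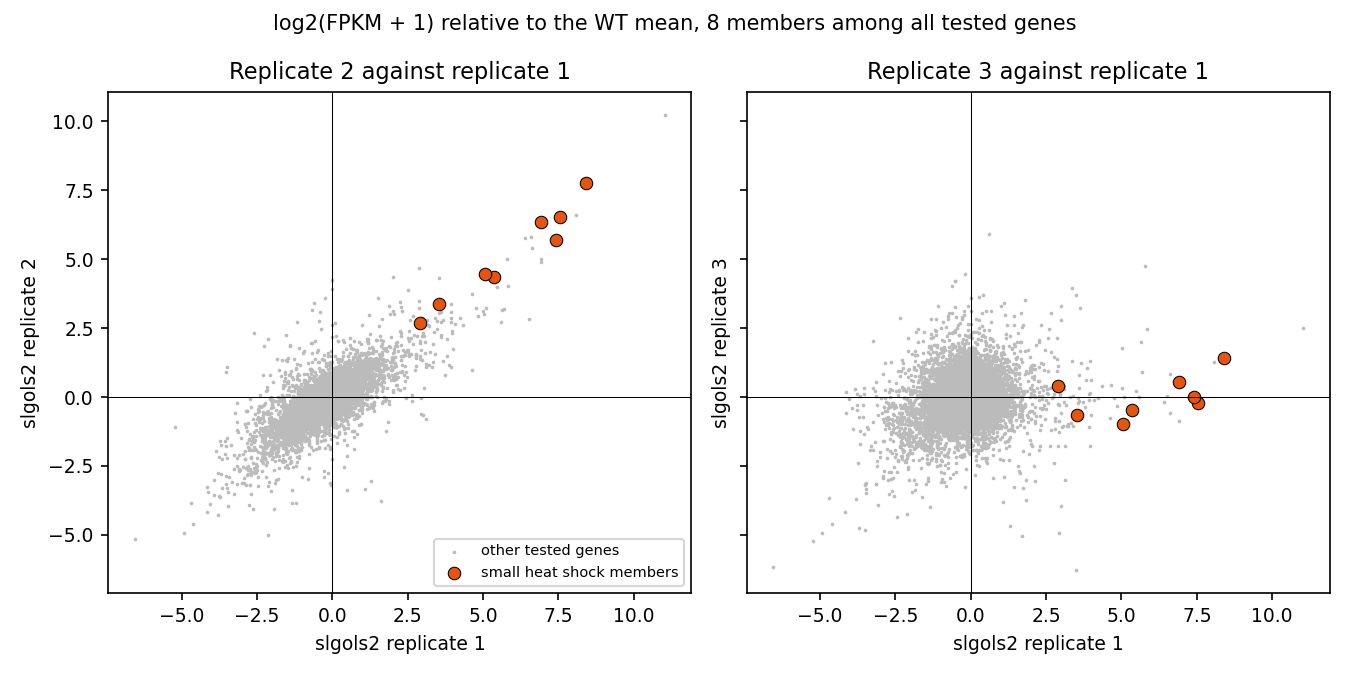
log2(FPKM + 1) relative to the WT mean for all 15695 tested genes, with slgols2 replicate 1 on the x axis and replicate 2 (left) or replicate 3 (right) on the y axis. The 8 small heat shock protein loci lie toward the upper right in the left panel. In the right panel they lie lower on the y axis, on both sides of 0.

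The 8 loci varied in parallel over the 6 libraries. Pearson's r of log2(FPKM + 1) between loci ran from 0.936 to 0.997 over 28 pairs, with a median of 0.979, and mostly restates that slgols2 replicates 1 and 2 were high. The pair of other genes whose pattern was most like the median profile of these loci was Solyc10g086640.2 (r = 0.9987 over 6 libraries) and Solyc12g096430.1 (r = 0.9967). Solyc10g086640.2 had 37, 22 and 28 reads in WT and 1364, 841 and 25 reads in slgols2, with 0.407 FPKM in WT replicate 1 and 14.6 FPKM in slgols2 replicate 1. Solyc12g096430.1 stood at 0.166, 0.0991 and 0.269 FPKM in WT and at 6.60, 4.66 and 0.145 FPKM in slgols2. Both were low in WT and in slgols2 replicate 3 and higher in the remaining pair, and both passed the filter only through slgols2. In all, 194 of 15687 other tested genes (1.24%) had an r above 0.95 with that profile.

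Among 59 unlisted gene models within 5 rows of a locus that has a row, 20 were tested. By limma 0 were called, beside 0.229% of all tested genes, and 3 had an unadjusted p under 0.05, beside 12.0%. With limma-voom 0 were called, beside 1 gene over all genes. Of the 20, 0 had slgols2 replicates 1 and 2 at 4 times the highest WT value, beside 0.497% of all tested genes. At such small shares a 0 among 20 says little about these neighbours. Their median log2 difference was -0.11. The place of Solyc08g078700, which has no row, is not in that count. Singled out after its values were seen, the unlisted row just before the place where that locus would fall held 15.2, 14.4 and 5.76 FPKM in WT and 1453, 357 and 17.2 FPKM in slgols2. It was thus high in slgols2 replicates 1 and 2 and near WT in replicate 3, and it is not taken to be that locus.

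Further heat shock genes were read from 3 lists of loci recalled from the literature, for which the table gives no names. The list of other small heat shock protein loci held 14, of which 10 were tested and 9 had a higher mean in slgols2, with a median log2 difference of 3.64. Among the 10, 1 passed the filter only through slgols2 and so had to differ, and over all 14 loci with no filter the median was 1.39. Without slgols2 replicate 1 the median over the 10 was 2.32. Set against the WT mean on the log2 scale, its median was 6.02 in slgols2 replicate 1, 4.08 in replicate 2 and -0.03 in replicate 3. One of its loci, singled out after its values were seen, stands in the row before Solyc09g015020.1, at 71.8, 35.4 and 68.1 FPKM in WT and at 4809, 3126 and 49.1 FPKM in slgols2. That row thus repeated the pattern of its neighbour at higher levels.

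Large chaperones refold or dissolve what small heat shock proteins hold. Of 21 loci on this list 18 were tested, 16 had a higher mean in slgols2, and the median log2 difference was 1.31, or 0.79 without slgols2 replicate 1. Set against the WT mean, the list stood at 2.38, 0.84 and 0.40 (median, log2 scale) in the slgols2 libraries 1, 2 and 3. At 13 of the 18 loci slgols2 replicates 1 and 2 both exceeded the highest WT value, beside 21.1% of all tested genes, and at 10 replicate 3 did, beside 38.1%. Their summed level was 5718, 3047 and 1740 FPKM in slgols2 and 2145, 2103 and 2261 FPKM in WT.

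Heat shock factors are a family of transcription factors, among them those that switch on small heat shock protein genes. Which loci of this list do so was not separated here. Of 20 loci 16 were tested, with 8 higher and 8 lower in the mean, and the median log2 difference was 0.00. Single loci had log2 differences from -0.92 to 1.00. Set against the WT mean, the list stood at -0.05, 0.13 and -0.17 (median, log2 scale) in the slgols2 libraries 1, 2 and 3. At 2 of the 16 loci slgols2 replicates 1 and 2 both exceeded the highest WT value, beside 21.1% of all tested genes. No locus of the 3 lists passed the adjusted threshold (limma, beside 0.229% of all tested genes). By limma-voom 0 were called, beside 1 gene over all genes. At an unadjusted p under 0.05 there were 4 of 10 other small heat shock loci, 9 of 18 large chaperones and 3 of 16 heat shock factors, beside 12.0% of tested genes. Of those 10, 1 passed the filter only through slgols2 and so had to differ. Counts of that list, here and under the alternatives, were not made without it. Without slgols2 replicate 3, 6 of the other small heat shock loci and 2 of the large chaperones were called, all higher, beside 0.777%, and 0 of the heat shock factors. With sample quality weights 1 heat shock factor was called higher and 2 lower, beside 12.9% of tested genes called in either direction.

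**Figure D5:**
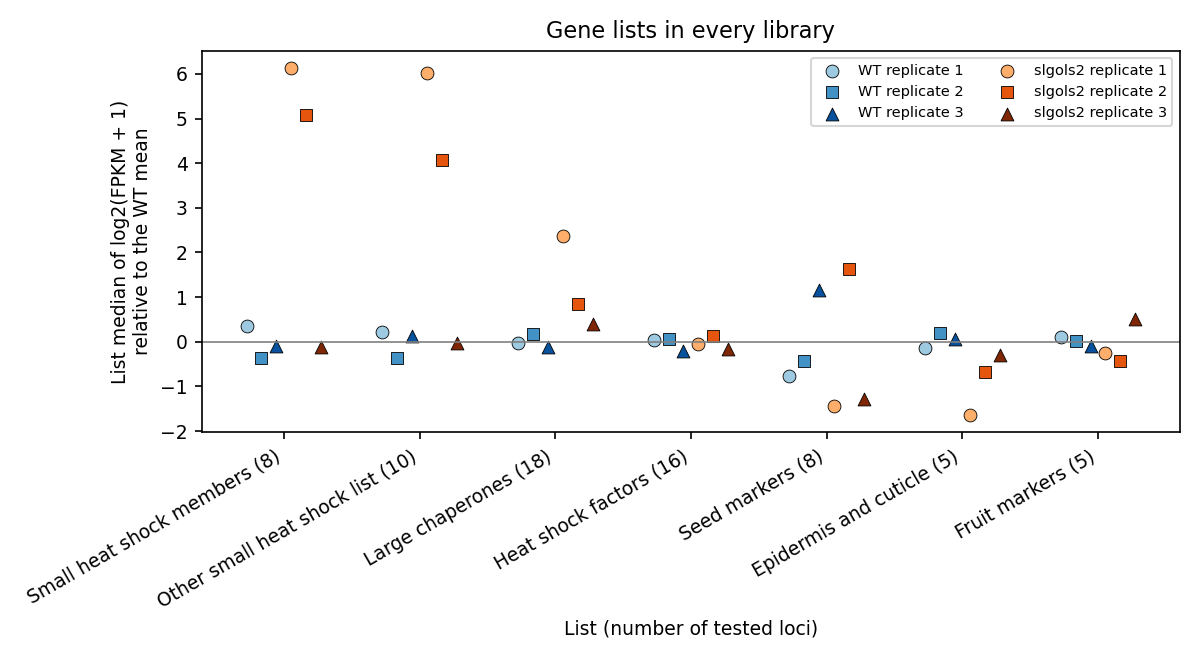
Median over the tested loci of each list of log2(FPKM + 1) relative to the WT mean, with 1 point per library. For the small heat shock protein loci the medians are 6.13, 5.08 and -0.12 in slgols2 replicates 1, 2 and 3 and -0.37 to 0.35 in WT.

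Markers of other parts of the fruit were set beside these values. Seed markers, loci for storage and oil body proteins and a seed regulator, summed to 26.5, 44.6 and 108 FPKM in WT and to 47.3, 168 and 16.5 FPKM in slgols2. Of 13 loci 4 were at 0 in every library and 8 were tested. Of these 0 passed the adjusted threshold (limma), beside 0.229% of all tested genes, and 0 an unadjusted p under 0.05, beside 12.0%. By limma-voom 0 were called, beside 1 gene over all genes. At such shares a 0 among 8 says little about seed content. The sum was highest in slgols2 replicate 2 and WT replicate 3. In slgols2 replicate 1, where small heat shock protein loci were highest, a single locus supplied 45.3 of the 47.3 FPKM. Without that locus the sums were 12.1, 16.1 and 61.3 FPKM in WT and 1.99, 104 and 5.85 FPKM in slgols2. Epidermis and cuticle markers summed to 506, 578 and 506 FPKM in WT and to 129, 178 and 363 FPKM in slgols2. The sums were thus lowest in the same pair of libraries that had high small heat shock protein levels. They rested mainly on Solyc11g006250.2 and Solyc08g081220.1, singled out after their values were seen. Solyc11g006250.2 stood at 224 to 295 FPKM in WT and at 37.8, 66.4 and 205 FPKM in slgols2. Solyc08g081220.1 stood at 180 to 194 FPKM in WT and was low in every slgols2 library, at 47.5, 56.0 and 76.9 FPKM. Replicate 3 of slgols2 was also below WT at Solyc02g085870.3 and Solyc02g088190.3, and above WT at Solyc01g091630.3. Of the 6 epidermis and cuticle loci 1 was at 0 in every library and 5 were tested, all with a lower mean in slgols2. None of the 5 passed the adjusted threshold (limma), beside 0.229% of all tested genes, and limma-voom called 0, beside 1 gene over all genes. At an unadjusted p under 0.05 (limma) there were 4, beside 12.0% of tested genes. Without slgols2 replicate 3, 2 were called lower, beside 1.78% called in either direction. With sample quality weights 3 were called lower, beside 12.9% called in either direction. The fruit regulators summed to 302, 189 and 172 FPKM in WT and to 130, 130 and 291 FPKM in slgols2. Of these sums Solyc02g077920.3 supplied 228, 108 and 99.5 FPKM in WT and 69.9, 70.3 and 193 FPKM in slgols2. The untested loci Solyc10g006880.3 and Solyc05g012020.3, low throughout, were below every WT library in every slgols2 library. These loci were singled out after their values were seen. The part of these markers in the small heat shock protein values was not tested.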

How the data were processed

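The deposited table holds the authors' FPKM values, per the file headers, for 35768 gene models in 3 WT and 3 slgols2 libraries, which were grouped by title. The submitters' processing notes name HISAT2 2.1.0 and DESeq 1.38.3. A counting tool, strand setting, genome build or annotation is not given in the sources used here. None of the identifiers matched the reference table of gene names (0 matched), and no sequence could be tied to a locus.

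Since FPKM is reads divided by length and depth, depths and reads were recovered from the steps between low values. The largest depth that gave whole lengths was taken, with 98.6% of 2515 low genes whole within 0.01 bases. The best other depth gave 14.0%, but simple fractions and multiples of the chosen depth were left out of that comparison. Recovered reads summed to 99.6% or 99.7% of each depth, and 15683 of 15695 tested genes gave whole reads within 0.02. Genes with a mean of at least 1 FPKM were fitted with limma 3.58.1 in R 4.3.3 on log2(FPKM + 1), a scale that understates changes of low genes, with genotype as the term, an intensity trend and two-sided Benjamini-Hochberg adjusted p at 0.05. The fit and the recovery were tested on simulated data. Relative levels are FPKM ratios to the WT mean, computed with pandas 2.3.3. With 3 against 3 libraries a permutation test cannot go below p = 0.10, so none was run. Reads carry no molecular identifiers, and a floor of 3 reads covers counting error only.

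The members and lists were chosen with earlier results of these data known, and the lists rest on recalled pairings of locus and function. All members are named, with the 2 other tested genes that have the highest r with the members' median profile. Alternatives covered pseudocount, filter, scaling, trend, weights, robust estimation, a replicate block, limma-voom and leaving out each library.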

Additional observations from a re-analysis of the deposited data

How the results depend on the processing

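Over all genes 36 were called. A pseudocount of 0.1 gave 20, no filter 55, a minimum mean of 5 FPKM 15, sample quality weights 2028 and limma-voom on recovered reads 1. Leaving out each library gave 7 (without WT replicate 1) to 279 (without slgols2 replicate 3). Of the 8 small heat shock protein loci, 0 were called in 14 of the 16 alternatives and 8 with sample quality weights or without slgols2 replicate 3, so that leaving out each library gave 0 to 8. Quality weights called 8 other small heat shock loci and 8 large chaperones, all higher, 3 heat shock factors (1 higher, 2 lower) and 3 epidermis and cuticle markers, all lower; leaving out each library gave 0 to 6 of the other small heat shock loci, 0 to 2 of the large chaperones and 0 to 0 of the heat shock factors. The median log2 difference of the small heat shock protein loci was 3.73 with all libraries, 2.40 without slgols2 replicate 1 and 5.71 without replicate 3, and without replicate 3 single loci lay between 2.79 and 8.09. Without slgols2 replicate 1 the median of the other small heat shock list was 2.32 in place of 3.64, and that of the large chaperones 0.79 in place of 1.31. The log2 difference of Solyc06g076540.1 was 2.00, but 3.62 with a pseudocount of 0.1 and 3.93 with limma-voom, both of which add less to low values. With no filter the median of the other small heat shock list, then over 14 loci, was 1.39. Otherwise the cause was not tested. A replicate block left 1 gene called and 0 of the small heat shock protein loci. Pairing by number is not shown, since deviations of same-numbered libraries correlated at -0.150, 0.089 and -0.165, and only number 2 correlated best with its own. Below about 10 reads, as at Solyc06g076540.1 in WT, depth limits what can be said of a level.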
